A study of Mus musculus with 8 samples.

Results

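Genes of the mammalian circadian clock were followed in sensory neurons of the dorsal root ganglion (DRG), the cluster of nerve cell bodies that sends fibres to skin and muscle. The set held 10 of the 22609 gene symbols counted: the activators Arntl and Clock, the repressors Per1, Per2, Per3, Cry1, Cry2 and Bhlhe41, the nuclear receptor Nr1d1 and the output factor Dbp. Its members were chosen by name, and Bhlhe41 was put in it with its higher level in the female libraries already known, so the values of females against males below are given as a description of its members, with no p-value, and calls among them are only counted beside the share of all genes. All 10 genes were found under these symbols and all 10 passed the filter on low counts.

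The neurons came from young adult naïve C57BL/6J mice, either females in the estrous phase or males, with 4 libraries for each sex. Every mouse had been injected on both sides, in hindpaw skin and thigh muscle, with WGA-488, a fluorescent lectin that is carried back along the axon to the cell body, and labelled cells of L3 to L5 ganglia were sorted by fluorescence. RNA was amplified with the SMART-seq2 protocol, which primes on the poly(A) tail. The libraries therefore mix skin and muscle neurons, the lectin marks whatever took it up, and the hour of day at which tissue was taken was not given in the sources used here.

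The circadian clock is a loop of transcription factors that most cells carry. ARNTL (also called BMAL1) and CLOCK bind E-box sequences as a pair and switch on the Per, Cry, Nr1d1, Dbp and Bhlhe41 genes, whose protein products then act back on the loop. PER and CRY block the activator pair, BHLHE41 (also called DEC2) competes for the same E-boxes, NR1D1 (REV-ERB alpha) represses Arntl through ROR response elements, and DBP drives genes with D-box sequences such as Per3. Because the levels follow the hour of day, transcripts of Arntl and of Dbp peak at opposite phases in most tissues. Sensory ganglia are known to hold such a clock.

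The sequences through which the loop acts were looked up in the promoters of the members, to show which of them carry an exact match near a start site. RefSeq windows of 300 bases (250 before and 50 after a start, build GRCm38.p6) were found for 9 of the 10 members, 13 windows in all, and Per2 was without one. An E-box, CACGTG, lay in windows of 3 members, Bhlhe41, Per1 and Cry1, and in 7.15% of all 32851 windows. A D-box, TTATGTAA or TTACGTAA read on both strands, lay in the window of Per3, where it occurred at 2 places, and in 1.06% of all windows. The ROR response element was matched in 1 window of Arntl, starting 27 bases after the start site, and in 0.384% of all windows, whereas the cAMP response element TGACGTCA was in none of the members and in 1.79% of all windows. No motif counted here overlaps another in the stretches shown, in which capitals mark the motif and the letters run 5′ to 3′ on the strand of the gene, with the first base of the motif counted from the start site.
Bhlhe41, E-box at -153: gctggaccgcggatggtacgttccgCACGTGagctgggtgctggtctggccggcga
Per1, E-box at -166: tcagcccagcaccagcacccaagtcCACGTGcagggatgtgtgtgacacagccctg
Cry1, E-box at -60: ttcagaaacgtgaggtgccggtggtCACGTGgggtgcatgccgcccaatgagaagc
Per3, D-boxes at -205 and -158: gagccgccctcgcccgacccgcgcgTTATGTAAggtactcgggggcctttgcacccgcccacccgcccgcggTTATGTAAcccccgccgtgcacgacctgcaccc

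Each stretch matched once in NCBIM37, the assembly also called mm9 to which the reads had been aligned. The Bhlhe41 stretch lies at chr6:145814063-145814118 on the minus strand, and its last 16 bases fall in the 5′ UTR of the first exon in the GENCODE M1 annotation. The Per1 stretch lies at chr11:68912260-68912315 on the plus strand, in an intron of the annotated Per1 transcript that starts furthest upstream. The Cry1 stretch at chr10:84647829-84647884 and the Per3 stretch at chr4:150418900-150419004, both on the minus strand, lie upstream of the annotated genes. A match describes the letters only.

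Depth was 4.80 to 7.33 M gene reads per library (M, 1e+06 reads), so that 3 reads correspond to 0.409 to 0.625 counts per 1e+06 gene reads (CPM). This floor covers counting error only, since reads carried no molecular identifiers. One library stood apart. In female replicate 4, the deviation of genes from their median over the 8 libraries fell with exon length (Spearman's rho of -0.531 over 12255 genes, against 0.0114 to 0.225 in the other libraries). The chi-square per degree of freedom of this library against the other females was 30.1 to 44.9, while all other pairs of one sex lay between 2.82 and 12.1. Sensory neuron markers summed to 25344 to 36000 CPM in females and 26408 to 28981 CPM in males, and none of the 12 was absent. Single markers differed: Nefh was at 527, 1090, 1663 and 1155 CPM in female replicates 1 to 4 and 280 to 625 CPM in males. Calca went the other way, with means of 3255 CPM in females and 4075 CPM in males. Markers of satellite glia and Schwann cells were also present, at 11617 to 14931 CPM in females and 5437 to 11213 CPM in males, with no overlap of the sums. In 3 of the 12 glial markers every female was above every male. Most of the sum was Apoe, at 8054 to 10873 CPM in females and 3068 to 7796 CPM in males, whereas Pmp22 had means of 1100 CPM in females and 1165 CPM in males. The mean log2(CPM + 1) of these 12 markers in a library is called the glial score and was used as a covariate in an alternative fit. Fibroblast markers summed to 88.3 to 146 CPM in females and 41.2 to 74.1 CPM in males. Macrophage markers reached 5.50 to 10.6 CPM in females and 1.64 to 6.44 CPM in males, endothelial markers 3.33 to 16.5 and 3.27 to 7.40 CPM, skeletal muscle markers 3.44 to 4.38 and 0.740 to 2.23 CPM, and red blood cell markers 0.208 to 3.71 and 0.136 to 0.444 CPM. Hba-a1 and Hbb-b1 were at 0 in all libraries, so the red blood cell sum was Alas2 alone. Whether counting or absence of blood gave these values of 0 was not tested.

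To set the members beside each other, levels were divided by exon length and given as CPM per kilobase. Cry2 was the most abundant of the 10 members, with 33.1 ± 4.30 CPM per kilobase (SD, n = 8), and Per3 the least, with 0.524 ± 0.158, so the mean of Cry2 was 63.1-fold that of Per3. With the length of the longest transcript in place of all exons, Bhlhe41 was the least at 0.602 and Per3 was at 0.839 CPM per kilobase, and Dbp at 3.64 stood above Clock at 2.94. Nr1d1 followed Cry2 with 8.99 ± 1.19 and Cry1 came next with 6.79 ± 1.35 CPM per kilobase. Per1 reached 3.07 ± 0.766, Clock 2.87 ± 0.905 and Dbp 2.21 ± 0.966 CPM per kilobase. Next above Per3, the lowest levels were those of Per2 with 1.6 ± 0.569, Arntl with 1.19 ± 0.194 and Bhlhe41 with 0.589 ± 0.493 CPM per kilobase. Of the 9 neighbouring pairs in this order, the ranges over libraries were separate for 2, Cry2 above Nr1d1 and Cry1 above Per1. The others overlapped, and Bhlhe41 exceeded Per3 in 4 of 8 libraries.

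**Figure D1:**
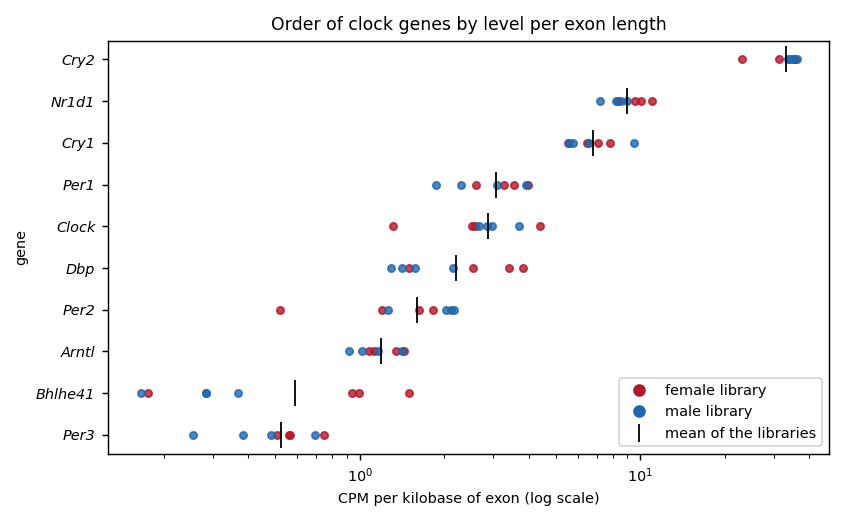
Level of each clock gene in each of the 8 libraries, in CPM per kilobase of exon on a log scale, with red points for female and blue points for male libraries and a bar at the mean. Cry2 lies apart at 23.1 to 36.1 CPM per kilobase, and the points of Bhlhe41 spread from 0.166 to 1.5 CPM per kilobase.

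Both genes of the activator pair were transcribed in every library. Arntl (chr7:120350979-120457636, plus strand, mm9) had 18 to 28 reads per library, at 3.16, 3.30, 3.96 and 4.21 CPM in female replicates 1 to 4 and 3.41, 2.67, 2.97 and 4.14 CPM in male replicates 1 to 4. The sexes overlapped, with means of 3.66 ± 0.507 and 3.30 ± 0.638 CPM (SD, n = 4 each) and a log2 fold change, female over male, of 0.12 ± 0.24 (SE). Clock (chr5:76639992-76733817, minus strand) was at 38.9, 22.7, 22.3 and 11.6 CPM in females and 32.7, 23.5, 26.1 and 25.1 CPM in males. Female replicates 1 and 4 were thus the highest and the lowest of all 8 libraries for Clock, and the log2 fold change was -0.18 ± 0.30 (SE). Without female replicate 4 it was 0.050 ± 0.20, and without female replicate 1 it was -0.52 ± 0.25.

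Among the Period genes, which encode the repressors that set the period of the loop, Per1 (chr11:68908719-68923462, plus strand) had the highest level per kilobase. It was at 18.4, 14.6, 20 and 22.4 CPM in female and 13.0, 17.4, 22.1 and 10.5 CPM in male libraries, a log2 fold change of 0.24 ± 0.24 (SE), and male replicates 2 and 3 lay within the female range while male replicates 1 and 4 lay below it. Per2 (chr1:93312561-93355907, minus strand) was at 7.01, 9.54, 10.6 and 3.03 CPM in females and 12.4, 12.6, 11.9 and 7.40 CPM in males. Male replicates 1, 2 and 3 were above every female library, and male replicate 4 was not. The log2 fold change of Per2 was -0.58 ± 0.34 (SE), and -0.32 ± 0.24 without female replicate 4, in which it had 18 reads. Per3 (chr4:150377761-150418774, minus strand) was at 7.15, 4.86, 5.42 and 5.39 CPM in females and 2.46, 6.68, 4.62 and 3.70 CPM in males. Male replicate 2 alone lay among the females, and the log2 fold change was 0.38 ± 0.30 (SE), which was 0.18 without male replicate 1, 0.66 without male replicate 2 and -0.068 with the glial score as a covariate. That of Per1 was -0.0098 with this covariate.

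The Cryptochromes, partners of the PER proteins in blocking the activator pair, had log2 fold changes near 0. Cry1 (chr10:84594447-84647799, minus strand) was at 21.3, 19.4, 23.5 and 16.7 CPM in females and 28.7, 17.4, 16.8 and 19.8 CPM in males, with a log2 fold change of -0.05 ± 0.20 (SE), or 0.38 with the glial score as a covariate. Cry2 (chr2:92243803-92274200, minus strand) was at 198, 223, 225 and 146 CPM in females and 228, 213, 216 and 222 CPM in males, with a log2 fold change of -0.17 ± 0.14 (SE). The male values of Cry2 lay close together, at 220 ± 6.67 CPM (SD, n = 4), and the low female value was that of replicate 4. An antisense gene, D930015M05Rik, shares 4.67% of the exon bases of Cry2.

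Bhlhe41 (chr6:145806763-145814078, minus strand) encodes a basic helix-loop-helix repressor and is known for variants in people with short sleep. It was at 1.1, 9.37, 6.25 and 5.90 CPM in female replicates 1 to 4, from 8, 54, 30 and 35 reads, and at 1.77, 1.04, 2.31 and 1.77 CPM in male replicates 1 to 4, from 13, 7, 14 and 12 reads. Female replicates 2, 3 and 4 were above every male library, whereas female replicate 1 lay at the bottom of the male range. The means were 5.65 ± 3.41 CPM in females and 1.73 ± 0.522 CPM in males (SD, n = 4 each), with a log2 fold change of 1.67 ± 0.54 (SE), that is 3.18-fold. It was 2.04 ± 0.33 without female replicate 1 and between 1.26 and 2.04 under all 16 alternatives. With the glial score as a covariate the log2 fold change was 1.34 ± 0.81 (SE). The glial marker sum was nearly the same in female replicates 1, 2 and 3, at 11618, 11617 and 11765 CPM, while Bhlhe41 was low in the first of them. Single glial markers differed from this sum, which is mostly Apoe. Sox10 was at 31.2, 79.3, 105 and 77.2 CPM in female replicates 1 to 4 and 11.2 to 31.5 CPM in males. Like Bhlhe41, it was thus lowest among females in replicate 1. Most other glial markers were not lowest there, and Erbb3 was highest, at 36.8, 33.3, 29.4 and 6.57 CPM in females. The cell type that gave the Bhlhe41 reads was not tested. In sorted bulk samples, fewer cells of a type and less RNA per cell cannot be told apart.

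Nr1d1 (chr11:98629246-98636647, minus strand) was at 26.1, 29.8, 31.5 and 34.4 CPM in females and 22.5, 25.5, 28.1 and 26.8 CPM in males. Female replicates 2, 3 and 4 were above all males, female replicate 1 was within the male range, and the log2 fold change was 0.22 ± 0.14 (SE), or 0.076 with the glial score as a covariate. Thra, on the opposite strand, shares 8.42% of the exon bases of Nr1d1. Dbp (chr7:52960458-52965525, plus strand) was at 4.4, 7.46, 10 and 11.3 CPM in females, from 32 to 67 reads, and at 3.82, 4.16, 4.62 and 6.36 CPM in males, from 28 to 43 reads. Again female replicate 1 alone lay among the males. The log2 fold change of Dbp was 0.77 ± 0.31 (SE), a 1.71-fold difference, between 0.58 and 1.00 under all 16 alternatives, and 0.58 ± 0.44 with the glial score as a covariate. Sphk2, on the opposite strand, shares 16.7% of the exon bases of Dbp. Library preparation did not mark strand, so reads of Cry2, Nr1d1 and Dbp cannot be told from those of their overlapping partners there, and these levels are uncertain to that extent.

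**Figure D2:**
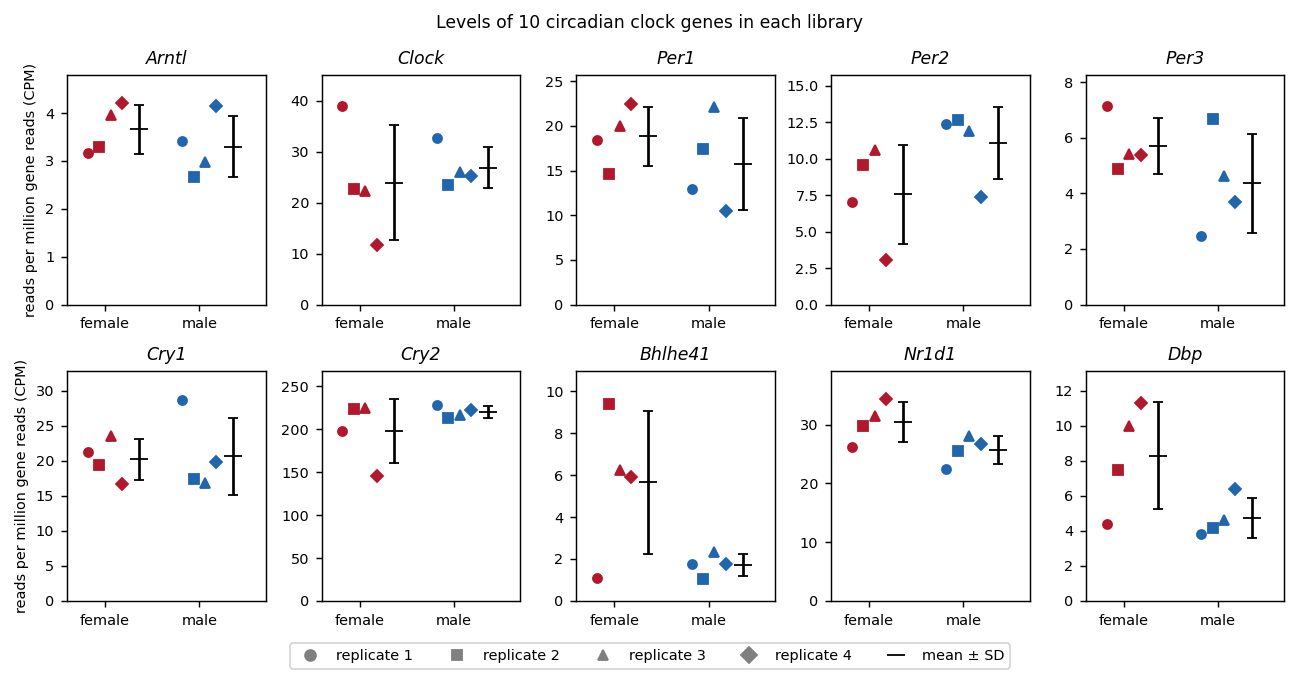
CPM of the 10 clock genes in female (red) and male (blue) libraries, with a symbol for each replicate number and the mean ± SD of each sex in black. Female replicate 1 has the lowest female value of Bhlhe41 (1.1 CPM), Nr1d1 (26.1 CPM) and Dbp (4.4 CPM) and the highest of Clock (38.9 CPM).

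Across the set, 6 members were above 0 on the log2 scale (female over male) and 4 below, with a median of 0.17 against 0.0034 over all 12518 genes tested. Without adjustment, 2 of the 10 had an edgeR p under 0.05, Bhlhe41 and Dbp, both higher in females, where 890 genes (7.11%) were called in all, 4.44% of genes being higher in females and 2.67% higher in males. After Benjamini-Hochberg adjustment over all genes none of the members was called by edgeR, where 0.0879% of genes were, sex-linked genes included, nor by DESeq2. In none of the 10 were the sexes separate, while of all genes 3% had every female library above every male library and 2.52% the reverse. Without female replicate 1 the sexes were separate in 4 members (Bhlhe41, Nr1d1 and Dbp higher in females, Clock higher in males), and of all genes 6.45% then had females above and 5.54% males above. As the set was formed with this contrast known for Bhlhe41, nothing is read from these counts.

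**Figure D3:**
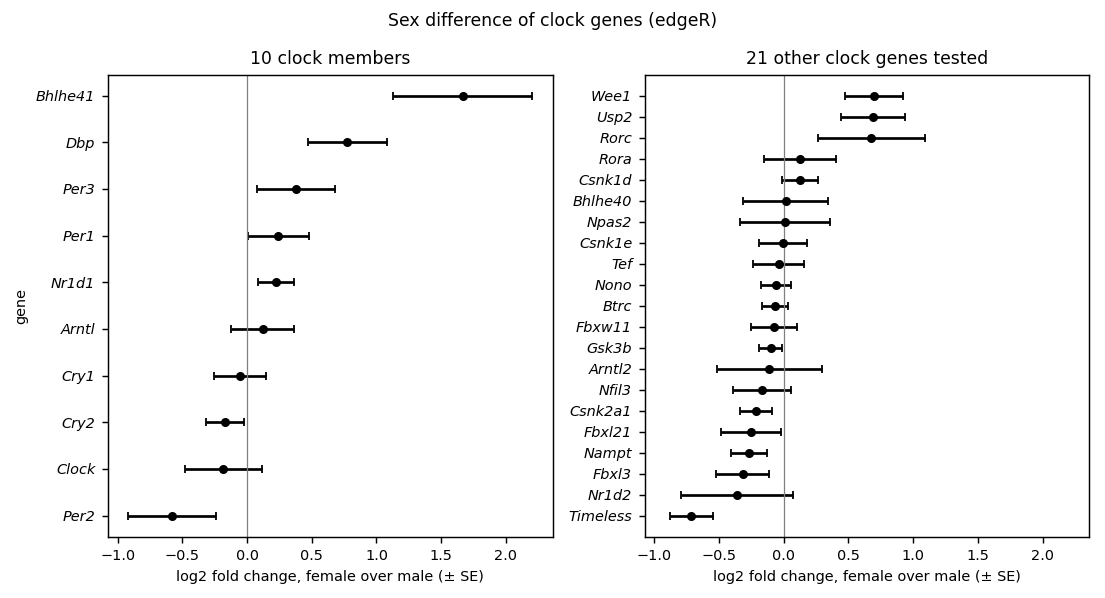
Log2 fold change, female over male, with its SE from edgeR, for the 10 members (left) and the 21 other clock genes tested (right), each ordered by size. Members run from -0.58 for Per2 to 1.67 for Bhlhe41, and the other clock genes from -0.72 for Timeless to 0.70 for Wee1.

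To ask how the members vary among animals of one sex, which the choice of the set did not use, log2(CPM + 1) was centred on the mean of each sex. Female replicate 1 deviated by -1.45 for Bhlhe41, -0.72 for Dbp and -0.21 for Nr1d1, and by 0.80 for Clock. Female replicate 4 deviated the other way for Clock, by -0.86, and was lowest for Per2, by -0.98, while Dbp was 0.47 and Nr1d1 0.18 above the mean. In males the widest deviations were those of Per3, -0.57 in replicate 1 and 0.58 in replicate 2, followed by Per1 with 0.52 in replicate 3 and Per2 with -0.50 in replicate 4. Clock, Per2 and Cry2 were low in female replicate 4, the library whose values fall with exon length, whereas Per3, with 9608 exon bases the longest of the set, was at -0.058 there. The part of that trend in these values was not tested.

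**Figure D4:**
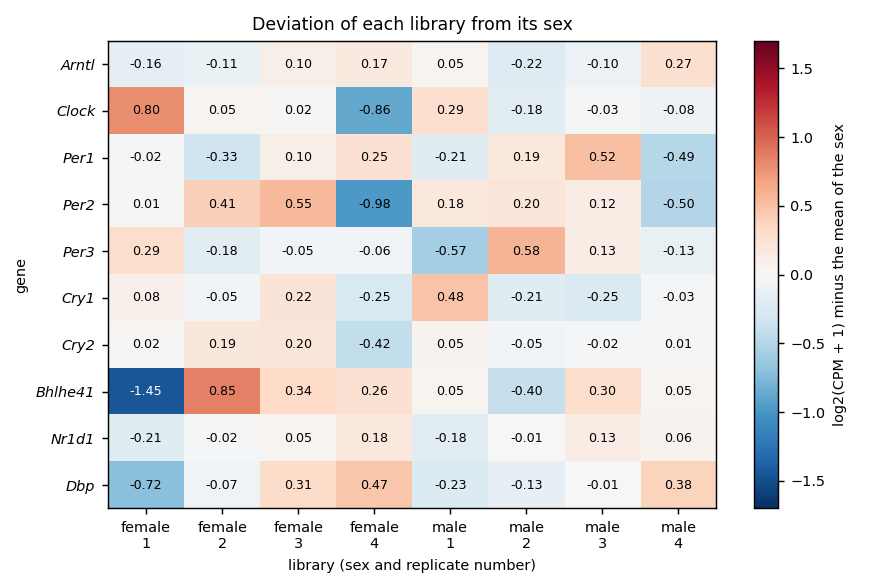
Deviation of log2(CPM + 1) from the mean of the sex, for 10 clock genes (rows) in 8 libraries (columns), red above and blue below the mean. The strongest deviations are -1.45 for Bhlhe41 in female replicate 1 and -0.98 for Per2 in female replicate 4.

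To follow the phase relations of the loop, 6 pairs were then correlated over the 8 libraries after centring, with two-sided exact permutation of values within each sex (smallest possible p of 0.0017) and Benjamini-Hochberg adjustment over the 6 pairs. Dbp and Nr1d1, which peak near each other in most tissues, had a Pearson's r of 0.849 (exact permutation p = 0.0174, adjusted p = 0.0885) and a Spearman's rho of 0.905 (exact permutation p = 0.0156, adjusted p = 0.0938). Arntl and Dbp, which peak at opposite phases, had a positive r of 0.75 (exact permutation p = 0.0295, adjusted p = 0.0885) and a rho of 0.786 (exact permutation p = 0.0451). Neither pair passed the threshold after adjustment. Arntl had 18 to 28 reads per library, so counting error is large beside its differences between libraries. The pairs with Arntl therefore cannot decide on phase. Without the 2 libraries farthest from the median of the first gene after centring, r fell to 0.622 for Dbp and Nr1d1 (female replicates 1 and 4 left out, exact permutation p = 0.271), with a rho of 0.83, and to 0.535 for Arntl and Dbp (replicate 4 of each sex left out, exact permutation p = 0.472), with a rho of 0.543. With the 2 libraries to leave out chosen on uncentred values, r was 0.724 and 0.734 for these pairs in turn. Without female replicate 1 alone, r of Dbp and Nr1d1 was 0.708 (exact permutation p = 0.118).

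The remaining pairs had larger p-values. Arntl with Nr1d1 had an r of 0.398 (exact permutation p = 0.352) and a rho of 0.595, Arntl with Per2 an r of -0.564 (exact permutation p = 0.144) and a rho of -0.405, and Arntl with Per3 an r of -0.586 (exact permutation p = 0.203) and a rho of -0.548. Dbp with Per3, the gene with D-boxes shown above, had an r of -0.254 (exact permutation p = 0.464) and a rho of -0.190. Without the 2 farthest libraries after centring r was 0.050, 0.554, -0.760 and 0.066 for these pairs in turn, so that Arntl with Per2 and Dbp with Per3 changed sign. Neither a batch nor a date is given in the labels, which leaves no batch to recompute these values in.

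**Figure D5:**
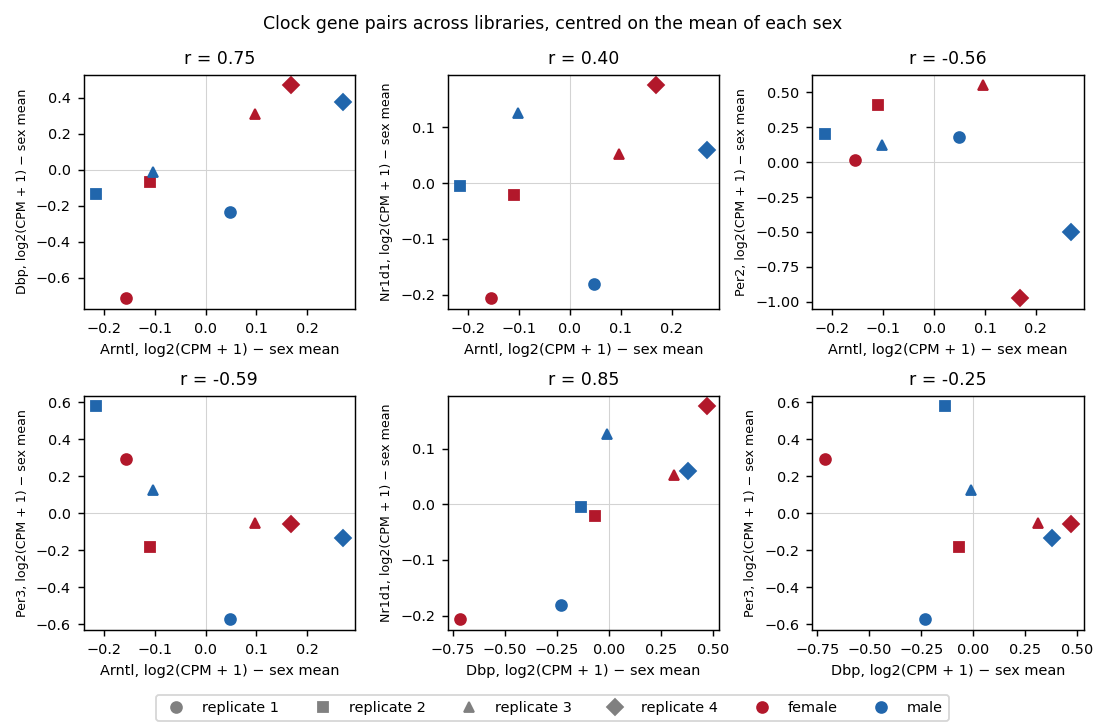
Each panel plots one clock gene against another in the 8 libraries, as log2(CPM + 1) minus the mean of the sex, with red for female, blue for male and a symbol for each replicate number. Dbp and Nr1d1 rise together (r = 0.85), whereas Arntl and Per3 lie in opposite directions (r = -0.59), and no pair passed the adjusted threshold.

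Other genes of the clock were taken from a list of 24 built on textbook roles. Of these, 21 passed the filter on low counts, 7 were above 0 and 14 below on the log2 scale, female over male, and the median was -0.069, against 0.0034 over all genes. By an unadjusted edgeR p under 0.05, 3 of the 21 were called beside 7.11% of all genes, 2 higher in females (Wee1 and Usp2) and 1 higher in males (Timeless), and none passed the adjusted threshold with edgeR. With DESeq2 1 of them, Timeless, had an adjusted p of 0.0398, and over the other alternatives it was between 0.152 and 0.999. The sexes were separate in 5 of the 21, with females above in Wee1 and Usp2 and males above in Timeless, Csnk2a1 and Nampt, beside 3% and 2.52% of all genes.

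Timeless, the homologue of a fly clock gene that in mammals also acts at replication forks, was at 46.5, 38.4, 31.5 and 48.3 CPM in females and 79.7, 65.2, 53.5 and 68.5 CPM in males. All males were above all females. Its log2 fold change, female over male, was -0.72 ± 0.17 (SE; adjusted p = 0.413, edgeR), and -0.43 ± 0.20 with the glial score as a covariate. Wee1, a kinase that holds back mitosis and is a known target of the activator pair, was at 8.66, 9.89, 13.8 and 9.10 CPM in females and 5.46, 8.02, 6.44 and 5.18 CPM in males, a difference of 0.70 ± 0.22 on the log2 scale (SE; adjusted p = 0.637, edgeR), or 0.51 ± 0.31 with the glial score as a covariate. Usp2, a protease that removes ubiquitin from clock proteins, was at 10.6, 10.2, 15.6 and 16.3 CPM in females and 5.59, 10.1, 9.91 and 6.66 CPM in males. Its lowest female and highest male values were nearly alike, and the difference on the log2 scale was 0.69 ± 0.25 (SE; adjusted p = 0.641, edgeR), or 0.32 ± 0.31 with the glial score as a covariate. Csnk2a1, a catalytic subunit of casein kinase 2, and Nampt, an enzyme of NAD synthesis, had log2 fold changes of -0.21 ± 0.12 and -0.27 ± 0.14 (SE), with edgeR adjusted p-values of 0.748 and 0.725.

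Among relatives of the members that were tested and always named, no log2 fold change was larger than its SE. Bhlhe40 (DEC1), the paralogue of Bhlhe41, was at 22.3, 19.4, 50.2 and 27.6 CPM in females and 26.9, 45.5, 21.6 and 22.3 CPM in males, and its log2 fold change was 0.015 ± 0.33 (SE). Female replicate 3 and male replicate 2 were high for Bhlhe40, and neither was the highest for Bhlhe41. Nr1d2, the paralogue of Nr1d1, was at 19.7, 17.7, 24.4 and 3.37 CPM in females and 15.0, 26.1, 19.0 and 22.5 CPM in males. Its log2 fold change was -0.36 ± 0.43 (SE), and -0.023 ± 0.20 without female replicate 4, the library low in long genes. Npas2, which can take the place of Clock, had 1.65 to 3.75 CPM in females and 1.5 to 3.25 CPM in males, with a log2 fold change of 0.0072 ± 0.35 (SE). Of the other D-box factors, the activator Tef had a log2 fold change of -0.041 ± 0.20 and the repressor Nfil3 one of -0.17 ± 0.22 (SE). Hlf had 0 to 4 reads per library and did not enter the test, likewise Gm129 (Ciart), with 1 to 11 reads, and Rorb, with 1 read in 1 male library.

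Per1 also responds to neuronal activity and glucocorticoids, so genes with such responses were set beside it. None of the 10 had an unadjusted edgeR p under 0.05 between the sexes. Fos, an immediate early gene, was at 88.8, 54.5, 269 and 299 CPM in females and 116, 221, 123 and 108 CPM in males. Egr1 was at 59.1, 37.7, 150 and 134 CPM in females and 71.9, 118, 88.0 and 56.4 CPM in males. In females the library lowest in Fos and Egr1, replicate 2, was also the lowest in Per1, and replicates 3 and 4 were the highest in all 3 genes, whereas male replicate 2, the highest male in Fos and Egr1, was not the highest in Per1. The glucocorticoid target Fkbp5 ranged from 15.5 to 23.9 CPM in females and from 18.8 to 20.1 CPM in males. Tsc22d3, another such target, was at 267, 258, 314 and 360 CPM in females and 262, 295, 315 and 271 CPM in males. Its female libraries had the order of Per1, and male replicate 3 was the highest male in both. Sgk1 was at 11.4, 11.1, 18.8 and 18.0 CPM in females and 5.59, 19.0, 15.4 and 14.1 CPM in males, with male replicate 2 the highest male. A relation of these genes to Per1 was not tested.

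Genes whose pattern over the 8 libraries was most like that of Bhlhe41 and of Dbp were ranked by Pearson's r of centred log2(CPM + 1) over the 12517 other genes that passed the filter. Nearest to Bhlhe41 were Numbl (r = 0.965), Klf3 (0.958), Cdh3 (0.955), Ubfd1 (0.953) and Kcnc4 (0.953). These values lean on female replicate 1, and without it r was 0.850, 0.876, 0.868, 0.646 and 0.634. Klf3, a zinc finger repressor, was at 4.26, 11.6, 7.71 and 8.93 CPM in females and 3.27, 2.97, 4.62 and 3.40 CPM in males, so that it too was lowest among females in replicate 1. Nearest to Dbp were Rtn1 (r = 0.996), Fam69b (0.988), Copz2 (0.983), Tcf3 (0.981) and Zfp358 (0.973), and these were 0.991, 0.968, 0.987, 0.945 and 0.929 without female replicate 1. Rtn1, a reticulon of the neuronal endoplasmic reticulum, was at 1011, 1228, 1368 and 1480 CPM in females and 978, 985, 1050 and 1191 CPM in males. The points share library and depth, the best of so many genes over 8 libraries will correlate strongly, and these r are a description.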

How the data were processed

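Libraries from 4 female and 4 male mice were analysed. The authors aligned single reads to mm9 with TopHat2 and counted them per gene with HTSeq, and the deposited values are raw read counts per gene symbol, not normalised. Tool versions, annotation release and strand option were not given in the sources used here. The study describes a sample as the L3 to L5 ganglia of both sides, which is the set of 1 mouse. The 5 summary lines per library were dropped.

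The sexes were compared in edgeR 4.0.16 by its quasi-likelihood test (R 4.3.3; TMM factors, filterByExpr, Benjamini-Hochberg adjustment over 12518 genes), which was first tested on simulated data. No sample was dropped. CPM used the sum of gene counts, log values a pseudocount of 1, and lengths the union of GENCODE M1 exons. Levels, correlations, motifs and figures were made with Python 3.11.15 (pandas 2.3.3, scipy 1.17.1, matplotlib 3.10.9). Other settings were limma-voom (limma 3.58.1), DESeq2 1.42.0, other scalings and filters, the replicate block, the glial score as a covariate, a pseudocount of 0.1, longest transcripts and leaving out each library.

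The members, lists and tests were chosen with earlier results of these data known. Genes were named by rule: the 10 members, listed clock genes with an unadjusted p under 0.05 or separate sexes, 6 always named, and the 5 most like Bhlhe41 and Dbp. The r values without female replicates 1 or 4 in that ranking, and those of pairs without the 2 libraries farthest in centred values, were chosen after seeing the data, as were the stimulus genes and the ranked genes whose values are given.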

Additional observations from a re-analysis of the deposited data

Results flagged for a closer look

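In 62 groups of 4 libraries of one sex examined with Dixon's test, 2 had a library that stood apart, where chance at 1 in 20 gives about 3.1. For Per2, male replicate 4 was the lowest at 7.40 CPM while the other males lay between 11.9 and 12.6 CPM, a gap of 0.885 of the range on the log2(CPM + 1) scale. For Nampt, female replicate 4 was the lowest at 32.7 CPM while the other females lay between 45.6 and 47.0 CPM, a gap of 0.917 of the range on the same log2 scale, and this library is the one whose values fall with exon length.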

How the results depend on the processing

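Clock members with an unadjusted p under 0.05 were 2, but 0 with limma-voom, 0 with the glial score as a covariate, 3 with the replicate block and 1 to 2 without single libraries. Members past the adjusted threshold were 0, and 0 to 1 without single libraries, the 1 being without female replicate 1. Members with separate sexes were 0, and 0 to 4 without single libraries, the 4 being without female replicate 1, where 6.45% and 5.54% of all genes had females or males above. Other clock genes at an unadjusted p under 0.05 were 3, but 0 with the glial score as a covariate, and 1 (Timeless) passed adjustment with DESeq2. Over all genes, unadjusted calls were 890, 296 with the glial score and 587 (without male replicate 1) to 1453 (without female replicate 4). Adjusted calls were 11, 46 with DESeq2, 5 with the glial score and 7 (without male replicate 4) to 84 (without female replicate 1). Of unadjusted calls, 62.5% were higher in females, but 49.9% without female replicate 4, 49.7% with the glial score and 70.0% with library size alone. With the replicate block, adjusted calls were 6 and the log2 fold change of Bhlhe41 1.49; libraries of one number deviated together little (r of 0.103, -0.117, 0.151 and 0.0101) and shared only a number. Within the member values, Clock ranged from -0.52 to 0.089, Cry1 from -0.14 to 0.38, Per1 from -0.0098 to 0.45 and Per3 from -0.068 to 0.66, and the other 6 members kept their sign in all 16 settings. The r of Dbp and Nr1d1 was 0.917 uncentred (adjusted p = 0.00342, exact permutation) and 0.708 to 0.934 without single libraries, past the threshold without male replicate 4 at 0.864, and that of Arntl and Dbp 0.683 to 0.817, past it without male replicate 1. Dbp with Per3 changed sign uncentred (0.169) and without female replicate 1 (0.085). By the longest transcript, Cry2 had 52.5, Nr1d1 10.3, Dbp 3.64 and Per3 0.839 CPM per kilobase, and Bhlhe41, at 0.602, was then the lowest member in place of Per3. The cause of these changes was not tested. Precision is limited by 7 to 54 reads of Bhlhe41 and 18 to 28 reads of Arntl per library.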
